A study of Mus musculus with 6 samples.

Results

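Tmx1, Tmx2, Tmx3 and Tmx4 encode the thioredoxin-related transmembrane proteins, members of the protein disulfide isomerase (PDI) family that sit in the membrane of the endoplasmic reticulum (ER). They were taken by name, as 4 of the 55421 genes counted in mouse pancreatic islets, and all 4 passed the filter on low counts that left 17016 genes for testing. The family was chosen because of the difference of Tmx4 between the groups, so every difference between the groups given for the 4 members is a description of these libraries and has no p-value beside it. The libraries came from islets of WT C57BL/6 mice in a group given the ligand insB:9-23 and a group given vehicle, with 3 RNA-seq libraries each. By its name the ligand is a peptide of the B chain of insulin, and the study asked how islet gene expression responds to it. The sources used here give neither dose, route and duration nor the age and number of animals, and leave unstated whether treatment took place in the animal or in culture. Which animals or pools gave each library is also unstated, so the p-values reflect spread among the 6 libraries only, and that spread may be technical.

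Proteins that enter the ER acquire disulfide bonds there, and PDI enzymes make, break and rearrange these bonds through a pair of cysteines in a thioredoxin fold. Proinsulin needs correctly paired disulfides before it can leave the ER of the beta cell, which makes the ER of islet cells a site of heavy disulfide traffic. The TMX proteins differ from most PDI enzymes in being anchored in the membrane. In human cells TMX1 acts preferentially on membrane-bound clients, TMX3 has an active site of the oxidase type, TMX2 lacks the first catalytic cysteine, and TMX4 is a reductase that also works in the nuclear envelope, where it helps to take apart the complexes that link nucleus and cytoskeleton.

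The coding bases of the active site show this difference within the family, and are given for Tmx1, Tmx2 and Tmx4 with 6 codons on each side. They were read from GENCODE M21 transcripts on GRCm38, and the capitals mark the 4 codons of the active-site motif.
Tmx1: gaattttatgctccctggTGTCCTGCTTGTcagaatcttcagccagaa
Tmx2: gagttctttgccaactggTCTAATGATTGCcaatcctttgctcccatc
Tmx4: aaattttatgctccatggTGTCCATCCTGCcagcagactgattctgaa
In Tmx1 the motif starts at codon 56 of 278 and opens and closes with TGT, a cysteine codon. In Tmx4 it starts at codon 60 of 335, opens with TGT and closes with TGC, both cysteine codons. In Tmx2 it starts at codon 167 of 295 and opens with TCT, a serine codon, so that TGC at its end is the lone cysteine codon of the motif. The motif lies in exon 2 of Tmx1 (plus strand), in exon 2 of Tmx4 (minus strand) and in exon 6 of Tmx2 (minus strand). The stretches occupy chr12:70453316-70456054 in Tmx1 and chr2:134639795-134643846 in Tmx4, each across the first intron, and chr2:84673520-84673567 in Tmx2.

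The genes lie apart in the genome, and their transcripts share only short runs of identical bases with each other. On GRCm38 with GENCODE M21, Tmx1 spans chr12:70453095-70468040 on the plus strand, Tmx2 chr2:84671316-84679140 on the minus strand, Tmx3 chr18:90510154-90543267 on the plus strand and Tmx4 chr2:134594185-134644145 on the minus strand. The longest run of identical bases shared by transcripts of any pair was 25 bases, between Tmx3 and Tmx4, and 13 to 18 bases for the other pairs. Runs with mismatches, and runs shared with genes outside the family, were not searched. No exon of another annotated gene overlaps an exon of Tmx1 or Tmx4. Gm28635 shares 252 exon bases with Tmx2 on the same strand, and the pseudogene AC163277.1 shares 491 with Tmx3 on the same strand. Both were listed at 0 in every library, and how reads in the shared bases were assigned is not given in the sources used here. Med19, a Mediator subunit, shares 19 bases with Tmx2 on the opposite strand, and the strand setting of the counting is not given either.

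Total counts lay between 52052808 and 58880189 per library, and levels are given in CPM, read counts scaled to a common library size after TMM normalisation. Islet markers were present, with 10 beta cell genes at 9.47% to 13.7% of counts in the insB:9-23 libraries and 11.9% to 13.6% in the vehicle libraries. Mafa, a beta cell factor of that list, was listed at 0 in every library. The 18 acinar genes took 16.9%, 14.9% and 22.6% of counts in insB:9-23 replicates 1 to 3, against 13.6%, 14.9% and 15.8% in vehicle replicates 1 to 3. The alpha cell genes took 1.44% to 2.36% in insB:9-23 libraries and 2.18% to 2.60% in vehicle libraries. The 9 lymphocyte genes took 0.0152% in insB:9-23 replicate 2 and at most 0.0046% in any other library. These are bulk libraries, so fewer cells of a type and less RNA per cell cannot be told apart.

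Tmx4 was far lower in the insB:9-23 group. Its read counts were 973, 1177 and 715 in insB:9-23 replicates 1 to 3, against 9884, 9355 and 8499 in vehicle replicates 1 to 3. Scaled to library size these are 16.6, 20.9 and 15.6 CPM in the insB:9-23 libraries and 156.5, 149.9 and 159.3 CPM in the vehicle libraries. Every insB:9-23 library was therefore low and every vehicle library high, with a wide gap between them. The means were 17.7 ± 2.82 CPM in the insB:9-23 group and 155.2 ± 4.79 CPM in the vehicle group (SD, n = 3 each), a log2 fold change of -3.13 ± 0.13 (SE) and a ratio of 0.114. Counting error is small at these depths, 2.91% to 3.74% of the count in the insB:9-23 libraries and 1.01% to 1.08% in the vehicle libraries. Tmx4 was the 1 member of 4 past the edgeR threshold of 0.05 on the adjusted p, where 0.0823% of all genes tested passed (14 of 17016; 0.0529% lower and 0.0294% higher), and that call is the one the family was chosen on. It was also the 1 member whose groups did not overlap, against 13.5% of all genes tested (7.12% lower and 6.40% higher).

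Without insB:9-23 replicate 3, the library with the highest acinar share, the log2 fold change of Tmx4 was -3.04 ± 0.13 (SE). With the acinar share as a covariate it was -2.99 ± 0.12 (SE).

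**Figure D1:**
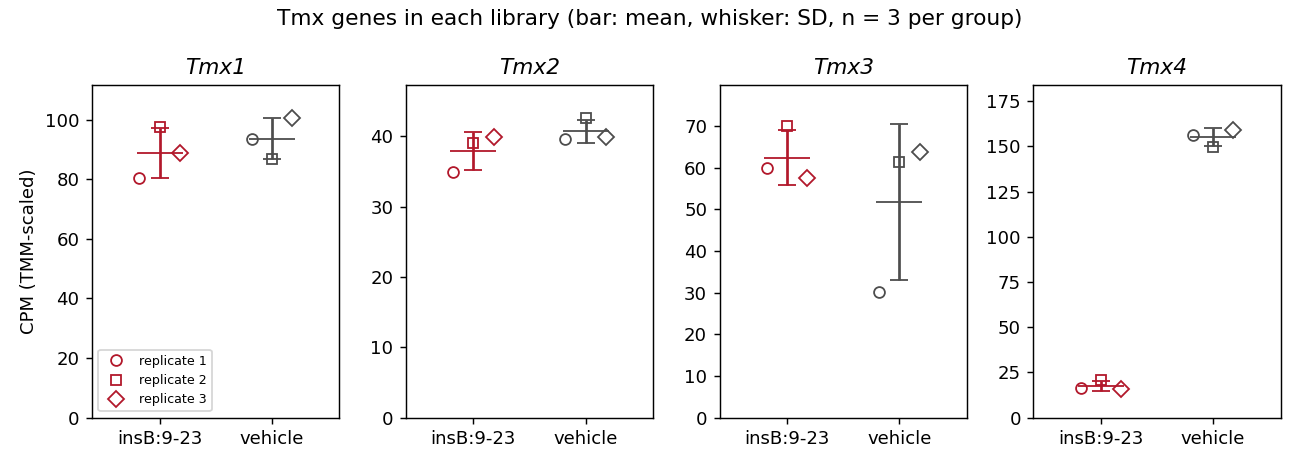
Level of each Tmx gene in CPM (y axes start at 0 and differ between panels) in the 3 insB:9-23 libraries and the 3 vehicle libraries; symbols mark the replicate, bars the mean and whiskers the SD. Tmx4 sits between 15.6 and 20.9 CPM in the insB:9-23 libraries and between 149.9 and 159.3 CPM in the vehicle libraries, while the groups overlap for the other genes.

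Tmx1, which in human cells acts on membrane-bound clients, had 80.4, 97.4 and 88.7 CPM in insB:9-23 replicates 1 to 3, against 93.5, 86.9 and 100.5 CPM in vehicle replicates 1 to 3. The ranges overlap widely. Its log2 fold change was -0.08 ± 0.10 (SE), smaller than its error.

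Tmx2, the member without the first catalytic cysteine and a protein of ER-mitochondria contacts, had 34.9, 39.1 and 39.8 CPM in insB:9-23 replicates 1 to 3. The vehicle replicates 1 to 3 had 39.6, 42.6 and 39.9 CPM. The insB:9-23 values reached into the vehicle range, with a log2 fold change of -0.10 ± 0.08 (SE).

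Tmx3 had 59.8, 69.9 and 57.5 CPM in insB:9-23 replicates 1 to 3, against 30.1, 61.3 and 63.9 CPM in vehicle replicates 1 to 3. The low value belonged to vehicle replicate 1, with 1900 counts against 3827 and 3408 in the other vehicle libraries, and the insB:9-23 libraries lay around those other values. The log2 fold change was 0.27 ± 0.29 (SE) with that library and -0.0050 ± 0.11 (SE) without it, so that 1 library set the value. The SD of Tmx3 in the vehicle group was 0.60 on the log2(CPM + 0.5) scale, larger than in 93.5% of the 3754 genes of like abundance (mean CPM within 2-fold). For Tmx4 in the vehicle group the SD was 0.045 on that scale, larger than in 18.4% of 2654 such genes. In the insB:9-23 group it was 0.22, larger than in 77.8% of the same genes. Tmx4 averaged 17.7 CPM in the insB:9-23 group and 155.2 CPM in the vehicle group, and genes within 2-fold of a single mean cannot match both levels. These ranks therefore do not set Tmx4 beside genes at its level in each group.

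The makeup of the family shifted accordingly. Tmx4 supplied 8.67%, 9.21% and 7.75% of the family's counts in insB:9-23 replicates 1 to 3 and 48.9%, 44.0% and 43.8% in vehicle replicates 1 to 3. Tmx1 was the most counted member in every insB:9-23 library, at 41.9% to 44.0% of family counts, while Tmx4 was the most counted in every vehicle library. Summed over the 4 genes, the family stood at 206.9 ± 18.4 CPM in the insB:9-23 group and 341.3 ± 22 CPM in the vehicle group (SD, n = 3 each). The sum of Tmx1, Tmx2 and Tmx3 alone was 189.2 ± 15.9 CPM in the insB:9-23 group and 186.1 ± 21 CPM in the vehicle group, a difference inside the spread of the libraries.

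**Figure D2:**
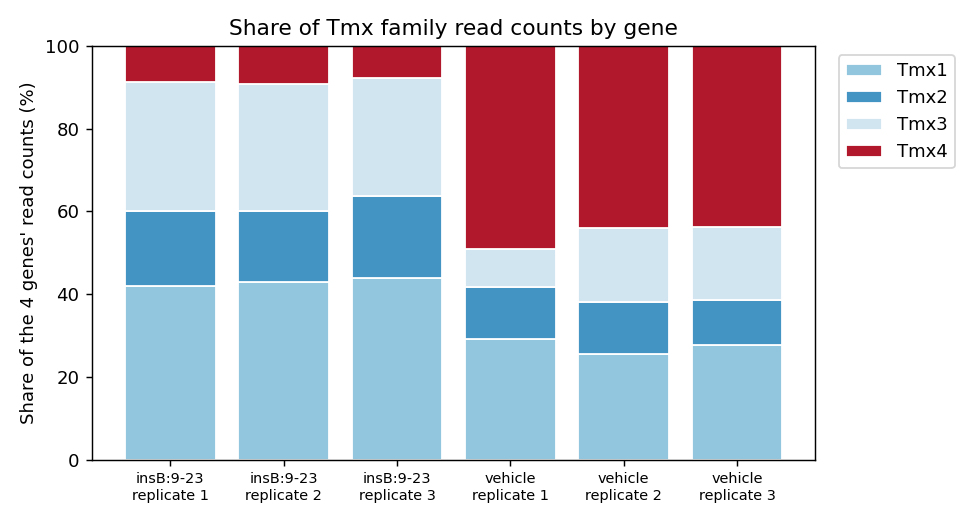
Share of the read counts of the 4 genes (y axis, %) taken by each gene in each library. Tmx4 takes 7.75% to 9.21% in the insB:9-23 libraries and 43.8% to 48.9% in the vehicle libraries.

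A ratio of counts within a library needs no scaling between libraries, and it gave the same size of difference. The log2 ratio of Tmx4 counts to the summed counts of Tmx1, Tmx2 and Tmx3 was -3.40, -3.30 and -3.57 in insB:9-23 replicates 1 to 3, against -0.06, -0.35 and -0.36 in vehicle replicates 1 to 3. The mean differed by -3.17 between insB:9-23 and vehicle, with SDs of 0.14 in the insB:9-23 group and 0.17 in the vehicle group. Against single paralogs the difference in log2 ratio was -3.06 for Tmx1, -3.04 for Tmx2 and -3.48 for Tmx3, the last including the low Tmx3 value of vehicle replicate 1. Among the paralogs themselves the count ratio of Tmx1 to Tmx2 lay between 2.23 and 2.49 in the insB:9-23 libraries and between 2.04 and 2.52 in the vehicle libraries. The ratio of Tmx1 to Tmx3 lay between 1.34 and 1.54 in the insB:9-23 libraries, was 1.42 and 1.57 in vehicle replicates 2 and 3, and reached 3.11 in vehicle replicate 1.

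**Figure D3:**
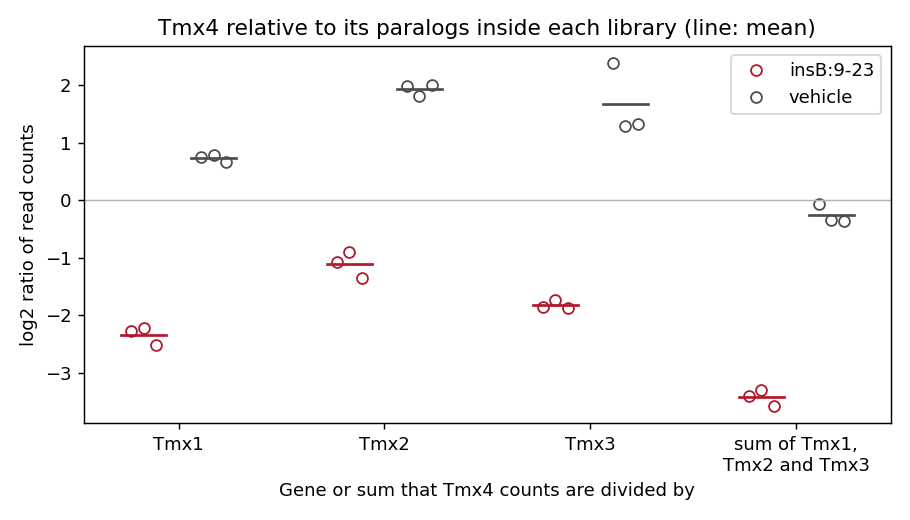
Log2 ratio of Tmx4 read counts to those of each paralog and to their sum (y axis) in each insB:9-23 library and each vehicle library, with lines at the group means. The ratios to the sum lie between -3.57 and -3.30 in the insB:9-23 libraries and between -0.36 and -0.06 in the vehicle libraries.

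Levels of different genes can be set beside each other only per length, and the order depended on the length used. Per kilobase of the longest annotated transcript, the insB:9-23 group had 31.8 ± 3.05 CPM per kilobase for Tmx1, 16.6 ± 1.17 for Tmx2, 13.5 ± 1.43 for Tmx3 and 3.23 ± 0.51 for Tmx4. The vehicle group had 33.5 ± 2.44 CPM per kilobase for Tmx1, 28.3 ± 0.87 for Tmx4, 17.8 ± 0.73 for Tmx2 and 11.2 ± 4.08 for Tmx3 (SD, n = 3 per group). Per kilobase of merged exons, which for Tmx3 and Tmx4 amount to 9933 and 10907 bases against longest transcripts of 4611 and 5488, the vehicle group had 17.5 ± 0.72 CPM per kilobase for Tmx2 and 14.2 ± 0.44 for Tmx4. In the insB:9-23 group Tmx4 was the lowest of the 4 by both lengths, and Tmx1 was the highest in both groups by both lengths. In neither group did neighbours in the order by longest transcript overlap, the closest being Tmx2 (15.3 to 17.5 CPM per kilobase) and Tmx3 (12.5 to 15.2) in the insB:9-23 group.

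The promoter of Tmx4 is shown beside that of Tmx1, its paralog with the same kind of active site. Each line gives the 250 bases before the RefSeq start on GRCm38.p6, 5′ to 3′ on the gene's strand, with matches to the searched motifs in capitals.
Tmx4: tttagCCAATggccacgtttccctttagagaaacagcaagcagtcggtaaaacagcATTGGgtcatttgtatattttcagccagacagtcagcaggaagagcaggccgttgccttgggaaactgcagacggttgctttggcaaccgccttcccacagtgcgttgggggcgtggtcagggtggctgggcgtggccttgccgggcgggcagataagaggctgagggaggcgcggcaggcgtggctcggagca
Tmx1: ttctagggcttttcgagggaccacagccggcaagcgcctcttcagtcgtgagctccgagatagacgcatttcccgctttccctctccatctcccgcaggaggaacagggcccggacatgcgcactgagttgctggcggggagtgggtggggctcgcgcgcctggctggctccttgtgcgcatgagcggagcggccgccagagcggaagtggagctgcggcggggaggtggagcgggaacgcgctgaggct
The Tmx4 window is chr2:134644122-134644371 on the minus strand, with 58.8% G and C, and the Tmx1 window is chr12:70452904-70453153 on the plus strand, with 67.2%. The search covered both strands for CCAAT, for the ER stress element (CCAAT and, 9 bases after it, CCACG, so that each match also counts as CCAAT), for TGACGTGG from the unfolded protein response element, for the cAMP response element TGACGTCA and for the E-box CACGTG. The Tmx4 window held 2 matches to CCAAT, 1 on each strand, and none to the others. The Tmx1 window held none of the 5. Tmx2 has 2 windows, which are not shown. Window 2 of Tmx2 held 4 matches to CCAAT and none to the others, and window 1 held none of the 5. Of 32851 windows of the same length, 33.8% held CCAAT, 0.113% the ER stress element, 0.563% TGACGTGG, 1.55% TGACGTCA and 6.02% CACGTG. A match is a run of letters and not a shown binding site.

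Genes next to Tmx4 did not pass the test. Plcb1, a phospholipase C gene 141922 bases away, had 28.4 ± 3.77 CPM in the insB:9-23 group and 28.6 ± 0.73 CPM in the vehicle group (edgeR adjusted p = 0.99). The nearest tested gene on the other side, Bmp2, lies 1031300 bases away and had 0.68 ± 0.28 CPM in the insB:9-23 group and 0.91 ± 0.56 CPM in the vehicle group (edgeR adjusted p = 0.94). Next to Tmx2, Selenoh (selenoprotein H) and Zdhhc5 (a palmitoyltransferase) had log2 fold changes of 0.03 ± 0.17 and -0.12 ± 0.14 (SE), and Med19 had 0.20 ± 0.31 (SE). Next to Tmx1, Frmd6 was at 0.04 ± 0.21 (SE) and Gm32151 at 0.43 ± 0.78 (SE). Next to Tmx3, Eif3s6-ps2 was at 0.05 ± 0.51 (SE) and Gm45871 at -0.83 ± 0.57 (SE). Counts per library were low for Gm32151 (6 to 31), Eif3s6-ps2 (11 to 22) and Bmp2 (18 to 98). None of the 9 neighbours passed the edgeR test, with adjusted p-values from 0.89 to 0.99. Only 0.0823% of all genes tested passed it, so this says little about the 9 neighbours. The direction of 8 of them changed when 1 library was left out, as for Bmp2 (0.19 without vehicle replicate 1), Gm32151 (-0.40 without insB:9-23 replicate 2) and Med19 (-0.094 without insB:9-23 replicate 3).

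The genes whose pattern over the 6 libraries was most like that of Tmx4, by Pearson's r of log2(CPM + 0.5), were Hist1h1c (r = 0.997), Nhlrc1 (0.996), Galnt4 (0.996), Trim26 (0.993) and Nsun3 (0.993). These libraries fall into separate groups for Tmx4, so r here mostly follows the difference between the groups. Hist1h1c, Nhlrc1 and Galnt4 had no count in any insB:9-23 library. In vehicle replicates 1 to 3 Hist1h1c had 7157, 6586 and 6337 counts, Galnt4 1861, 2076 and 1931, and Nhlrc1 196, 208 and 176. Whether such zeros, or the low counts of Tmx4, came from expression or from how reads were counted was not tested. Trim26, a tripartite-motif ubiquitin ligase gene, had 23.2 ± 1.93 CPM in the insB:9-23 group and 38.9 ± 1.28 CPM in the vehicle group. Nsun3, a methyltransferase of a mitochondrial tRNA, had 3.36 ± 0.15 CPM in the insB:9-23 group and 11.8 ± 0.56 CPM in the vehicle group. The paralogs were less like Tmx4, with r of 0.60 for Tmx2, 0.42 for Tmx1 and -0.41 for Tmx3.

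Other genes of disulfide chemistry and of the known settings of TMX proteins were read from 6 lists made by function. Of their 83 tested genes, 0 passed the edgeR test over all genes, against 0.0823% of all genes tested (14 of 17016). With so small a share, 0 of 83 says little about these genes. DESeq2 and limma-voom called 0 of them too. At an unadjusted p below 0.05 there were 9, of which 2 were higher and 7 lower in the insB:9-23 group; that is 10.8% of the list genes, against 5.55% of all genes tested (944 of 17016). The groups did not overlap for 16 of the 83 genes (19.3%; 3 higher and 13 lower in the insB:9-23 group), against 13.5% of all genes tested (6.40% higher and 7.12% lower). The median log2 fold change of all genes was 0.009.

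Among the 17 tested genes of the PDI family outside the TMX genes, the median log2 fold change was -0.08, in a range of -0.33 to 0.51, with 6 genes above 0 and 11 below. P4hb, the founding PDI, had 871.2 ± 89.2 CPM in the insB:9-23 group and 781.0 ± 122.5 CPM in the vehicle group. Pdia3, the PDI that works with calnexin and calreticulin, had 744.6 ± 26.2 CPM in the insB:9-23 group and 764.7 ± 41.0 CPM in the vehicle group. The smallest p belonged to Txndc5, a PDI with several thioredoxin domains, with 136.7 ± 0.52 CPM in the insB:9-23 group and 157.8 ± 3.15 CPM in the vehicle group (edgeR adjusted p = 0.86). Pdia5 followed with 21.6 ± 2.92 CPM in the insB:9-23 group and 27.2 ± 2.64 CPM in the vehicle group, and Pdia6 with 348.3 ± 13.5 CPM in the insB:9-23 group and 394.2 ± 37 CPM in the vehicle group (both edgeR adjusted p = 0.88). Erp29, a lumenal PDI relative without an active site, had 54.4 ± 3.92 CPM in the insB:9-23 group and 47.8 ± 10.7 CPM in the vehicle group. Its log2 fold change of 0.19 was 0.011 without vehicle replicate 3, which had 35.5 CPM against 54.1 and 53.9 in the other vehicle libraries. Txndc15, a membrane-bound member also called TMX5 and singled out after its values were seen, had 32.5 ± 8.48 CPM in the insB:9-23 group and 36.7 ± 3.17 CPM in the vehicle group (edgeR adjusted p = 0.93). Pdia2, the pancreas-rich PDI that is also on the acinar list, had 757.0, 604.0 and 1244 CPM in insB:9-23 replicates 1 to 3 and 554.9, 638.7 and 670.8 CPM in vehicle replicates 1 to 3 (singled out after its values were seen). Its highest value belonged to insB:9-23 replicate 3, the library with the highest acinar share.

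Of 12 genes that feed oxidising power or selenoproteins into ER disulfide chemistry, 5 lay above 0 and 7 below, and the median log2 fold change was -0.06. Ero1lb, the ER oxidase enriched in beta cells, had 1751 ± 137.7 CPM in the insB:9-23 group and 1986 ± 182.6 CPM in the vehicle group (edgeR adjusted p = 0.88). Vkorc1, the vitamin K epoxide reductase, had the smallest p of the list, with 30.3 ± 2.04 CPM in the insB:9-23 group and 20.7 ± 3.03 CPM in the vehicle group (log2 fold change 0.55 ± 0.13 SE; edgeR adjusted p = 0.83). Ero1l, the more widely expressed oxidase, had 69.0 ± 1.11 CPM in the insB:9-23 group and 76.5 ± 3.25 CPM in the vehicle group, and Selenos, a selenoprotein of ER quality control, had 59.5 ± 14 CPM in the insB:9-23 group and 79.7 ± 11 CPM in the vehicle group (both edgeR adjusted p = 0.88).

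The calnexin cycle, which retains glycoproteins for folding, had a median log2 fold change of -0.01 over 11 genes, with 5 above 0 and 6 below. Canx, encoding calnexin itself, had 303.7 ± 9.44 CPM in the insB:9-23 group and 330.2 ± 11.2 CPM in the vehicle group, and Calr, encoding calreticulin, had 625.9 ± 41.4 CPM in the insB:9-23 group and 647.7 ± 13.3 CPM in the vehicle group. Edem3, which acts in the disposal of misfolded glycoproteins, had the smallest p of the list, with 65.8 ± 6.72 CPM in the insB:9-23 group and 80.0 ± 3.18 CPM in the vehicle group (edgeR adjusted p = 0.88). Edem2 of the same family had 167.4 ± 25.7 CPM in the insB:9-23 group and 149.7 ± 5.72 CPM in the vehicle group.

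The nuclear envelope list, with the LINC complex genes that connect nucleus and cytoskeleton, had a median log2 fold change of -0.04 over 14 genes, 6 above 0 and 8 below. Sun1 had 121.4 ± 2.96 CPM in the insB:9-23 group and 129.4 ± 7.25 CPM in the vehicle group, and Sun2 had 17.3 ± 1.23 CPM in the insB:9-23 group and 17.1 ± 0.22 CPM in the vehicle group. Both encode inner membrane proteins of the complex. Syne1, an outer membrane nesprin, had 142.6 ± 2.93 CPM in the insB:9-23 group and 163.6 ± 2.46 CPM in the vehicle group. Tor1b, a torsin ATPase of ER and nuclear envelope, had 26.7 ± 1.71 CPM in the insB:9-23 group and 34.8 ± 2.98 CPM in the vehicle group, and Lmnb1, lamin B1, had 10.6 ± 1.27 CPM in the insB:9-23 group and 8.01 ± 1.15 CPM in the vehicle group. These 3 genes had the smallest p of the list, each with an edgeR adjusted p of 0.88.

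Genes of ER calcium handling and ER-mitochondria contacts had a median log2 fold change of -0.14 over 13 genes, 3 above 0 and 10 below. Atp2a2, which encodes the SERCA calcium pump that TMX1 binds in human cells, had 1244 ± 60.4 CPM in the insB:9-23 group and 1429 ± 38.9 CPM in the vehicle group (log2 fold change -0.20 ± 0.07 SE; edgeR adjusted p = 0.88). Itpr1, an ER calcium release channel, had 182.0 ± 2.58 CPM in the insB:9-23 group and 196.3 ± 3.09 CPM in the vehicle group, and Rmdn3, a contact-site tether, had 31.8 ± 2.26 CPM in the insB:9-23 group and 36.0 ± 1.70 CPM in the vehicle group (both edgeR adjusted p = 0.88). Outside the ER, the median log2 fold change of 16 thioredoxin and glutaredoxin genes was 0.17, and 13 of them were above 0. The 3 with the smallest p were Txnl1, at 98.7 ± 5.82 CPM in the insB:9-23 group and 110.8 ± 3.24 CPM in the vehicle group, mitochondrial Txn2, at 36.4 ± 1.72 CPM in the insB:9-23 group and 24.4 ± 10.2 CPM in the vehicle group, and Txndc17, at 19.6 ± 12.3 CPM in the insB:9-23 group and 11.6 ± 0.37 CPM in the vehicle group, each with an edgeR adjusted p of 0.88. Txndc17 had 33.7 CPM in insB:9-23 replicate 2, against 12.9 CPM in replicate 1 and a like level in replicate 3, and its log2 fold change of 0.75 was 0.10 without replicate 2. Txn2 had 36.1 CPM in vehicle replicate 3 and 17.4 and 19.7 CPM in vehicle replicates 1 and 2; its log2 fold change of 0.58 was 0.97 without replicate 3 and 0.38 without replicate 1. The median of the list also rested on single libraries: it was 0.077 without vehicle replicate 1, 0.26 without vehicle replicate 2 and 0.078 without insB:9-23 replicate 3, and 0.063 with the acinar covariate. It was -0.01 when libraries were scaled by their totals alone, a setting that moved the median of all genes to -0.15.

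**Figure D4:**
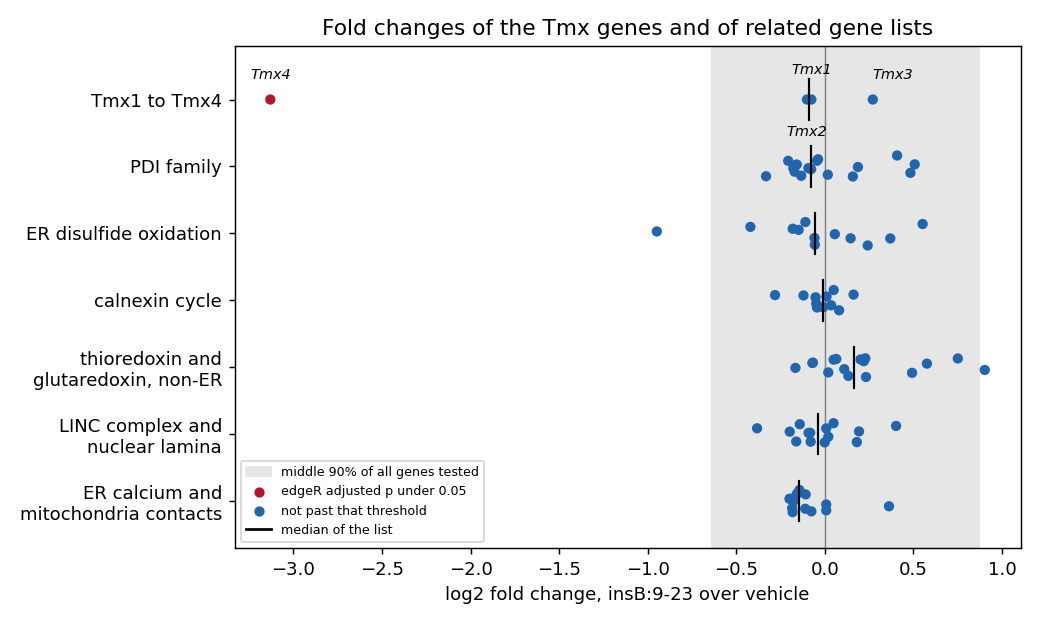
Log2 fold change, insB:9-23 over vehicle (x axis), of the 4 Tmx genes and of each tested gene in the 6 related lists (rows); black lines are list medians and the grey band holds the middle 90% of all genes tested, from -0.63 to 0.87. Tmx4 lies at -3.13, past the edgeR threshold, and no other gene shown passed it.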

How the data were processed

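RNA of 6 mouse islet samples was extracted with TRIzol and made into libraries with a KAPA stranded kit, per the labels' protocols. Each library has 1 deposited table of raw counts by Ensembl gene ID, with no normalisation by the authors. Per the submitters' processing notes, the build was GRCm38 and the tools included featureCounts 1.5.0-p3, HISAT and DESeq 1.8.3, without roles. The sources used here give neither annotation release nor strand setting. Groups and replicate numbers came from the titles. Symbols, positions and exon lengths came from GENCODE M21 (55154 of 55421 IDs matched), promoter sequences from RefSeq on GRCm38.p6. The test was edgeR 4.0.16 under R 4.3.3 (filterByExpr, TMM, robust quasi-likelihood F test, Benjamini-Hochberg over 17016 genes, threshold 0.05). SEs are the fold divided by the root of F. On data simulated for this comparison (16432 genes tested) edgeR called 70 of 100 genes set to differ 4-fold and 23 of 100 set to differ 2-fold. Of its 103 calls 10 were false, a share above the threshold of 0.05 in this single simulation. Genes with low mean counts were left out when choosing the genes set to differ, so recovery among them was not measured.

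The members and the gene lists were chosen with earlier results of these data known. Genes named are the members, the 3 smallest p-values of each list, 9 fixed genes, the nearest tested and overlapping genes, and the 5 most like Tmx4 (mean of at least 1 CPM). Libraries of a group differed by a chi-square of 80.0 to 247.1 per degree of freedom, so none was a repeat deposit. Alternatives were other scalings, DESeq2 1.42.0, limma-voom (limma 3.58.1), other filters, the replicate number as a block, an acinar covariate and each library left out. Added after the data were seen were the longest transcript as length, Tmx2 with Gm28635, and the ratio without Tmx2 or Tmx3. Adding Gm28635 could not change the ratio, since it had 0 counts in every library.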

Additional observations from a re-analysis of the deposited data

How the results depend on the processing

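The log2 fold change of Tmx4 lay between -3.27 and -2.99 over 15 alternatives and stayed past the threshold in 14. The family was chosen on this difference, so refits of the same 6 libraries describe it and add no independent test. With the replicate number as a block the log2 fold change of Tmx4 was -3.14 and no longer past the threshold. In that fit the number of genes called over the whole table was 0, with 605 at an unadjusted edgeR p below 0.05. Pairing by replicate number was not seen. The deviations of same-numbered libraries correlated between -0.06 and -0.02, and 0 of 6 libraries correlated best with their own number. With so few libraries this does not show that they were unpaired. Without each library in turn Tmx4 lay between -3.27 and -3.04. The difference in the log2 ratio of Tmx4 to its paralogs lay between -3.23 and -3.07 without each library in turn, and between -3.20 and -3.06 with other lengths or without Tmx2 or Tmx3. Tmx1, Tmx2 and Tmx3 did not pass in any of the 15, and Tmx3 lay between -0.0050 and 0.45 without each library in turn. The count of genes called, 14, was 116 with DESeq2, 9 with at least 10 counts in every library and 9 with the acinar covariate; the cause was not tested. It lay between 16 and 26 without each library in turn, at 23 without vehicle replicate 1, 25 without insB:9-23 replicate 1 and 26 without insB:9-23 replicate 3. No gene of the 6 lists was called under any of the 15, in which at most 116 genes of the whole table were called. Of 90 list medians under alternatives, 18 moved by more than the spread between libraries. Of 38 genes followed, 13 changed direction under an alternative, none of them past the threshold. With library totals alone the log2 fold change was -0.0091 for Edem2, -0.12 for Sun2, -0.086 for Frmd6, -0.10 for Selenoh, -0.0016 for Med19 and -0.12 for Eif3s6-ps2. With upper quartile scaling it was 0.0038 for Plcb1. With the acinar covariate it was -0.0043 for Edem2, 0.017 for Calr, -0.094 for Med19, -0.20 for Eif3s6-ps2 and 0.32 for Bmp2. Without each library in turn it lay between -0.76 and 0.19 for Bmp2, -0.083 and 0.0077 for Calr, -0.22 and 0.24 for Eif3s6-ps2, -0.090 and 0.17 for Frmd6, -0.40 and 0.95 for Gm32151, -0.094 and 0.48 for Med19, -0.075 and 0.0021 for Pdia3, -0.12 and 0.061 for Plcb1, -0.063 and 0.17 for Selenoh, -0.021 and 0.078 for Sun2, and -0.21 and 0.027 for Zdhhc5. The cause of these changes was not tested.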
